A study of Mus musculus with 8 samples.

Results

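The genes described here encode 10 cytokine chains that monocytes and macrophages make: the IL-12 family chains Il27, Ebi3, Il12a, Il12b and Il23a, the IL-6 family cytokines Il6, Osm and Lif, the inhibitory cytokine gene Il10, and Tnf. They were taken by name, with earlier results of these data known, and all 10 of 10 were found among the 22180 genes of the arrays. Each level is the log2 expression value of 1 probe set, and only Ebi3 had more than 1, of which the brighter on average was used. The cells were CD45+ CD11b+ Ly6Chi inflammatory monocytes and macrophages, sorted by flow cytometry from tumours under the skin of female C57BL/6 mice of 8 weeks. In the irradiated group (4 mice) the tumours received 20 Gy, and in the sham group (4 mice) a mock treatment, with harvest 1 day later in both. All tumours had grown for 14 days from cell line 152, a pancreatic cancer line of KrasLSL-G12D/+, Trp53LSL-R172H/+, Pdx1-Cre (KPC) origin, in which the Pdx1 promoter directs Cre to the pancreatic lineage. The sorted cells belong to the host and carry none of these alleles. The tumour is a single line placed outside the pancreas, so the values describe that one setting.

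IL-12 family cytokines are pairs of a helical chain and a receptor-like chain. Il12a with Il12b makes IL-12, which drives interferon gamma production by T and NK cells, and Il23a with the same Il12b makes IL-23, which sustains IL-17-producing cells. Il27 with Ebi3 makes IL-27, which can both promote and restrain T cells, and Ebi3 with Il12a makes IL-35, described in regulatory lymphocytes. IL-6, oncostatin M and leukaemia inhibitory factor act through receptors that share the gp130 chain and activate STAT3. IL-10 also signals through STAT3 and dampens the output of TNF and IL-12 by macrophages, while TNF itself is the early inflammatory product of activated monocytes. All of these genes are transcribed upon stimulation, through NF-kB, AP-1 and interferon regulatory factors, and most of their mRNAs are short-lived.

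The array medians lay between 4.68 and 4.73, and arrays correlated at 0.976 to 0.988 with one another over all probe sets. The sorted profile was present on every array: Ptprc (CD45) ran from 11.50 to 11.71 in irradiated mice and from 11.60 to 11.71 in sham mice, and Itgam (CD11b) from 10.99 to 11.28 in irradiated mice and from 10.68 to 11.09 in sham mice. Ly6c2, the gene of the Ly6C antigen, ran from 10.77 to 12.45 in irradiated mice and from 11.03 to 11.98 in sham mice. The arrays also carried transcripts of other cells in uneven amounts. The mean of 20 measured T and NK cell markers was 6.68, 5.47, 5.42 and 6.61 in irradiated mice 1 to 4 and 5.46, 7.49, 7.64 and 5.80 in sham mice 1 to 4, so sham mice 2 and 3 stood above the rest. Of 17 neutrophil markers the mean was 6.64, 7.17, 7.65 and 6.60 in irradiated mice 1 to 4 and 7.51, 7.52, 8.57 and 7.31 in sham mice 1 to 4, highest in sham mouse 3. In bulk RNA of this kind, fewer cells of a type and less RNA per cell cannot be told apart.

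The comparison asks how these cytokine genes stand in tumour monocytes 1 day after an ablative dose. Il27 was higher in irradiated mice by 0.43 ± 0.15 (SE) on the log2 scale, a 1.35-fold difference, and was the only one of the 10 whose 95% interval lay away from 0. Tnf (0.44), Lif (0.28) and Il10 (0.26) were also higher on average, but their differences were smaller than the spread between mice. Ebi3, Il12a, Il12b, Il23a, Il6 and Osm differed by 0.15 or less to either side. In limma's moderated test with Benjamini-Hochberg adjustment over all 22180 genes, 0 of the 10 passed an adjusted p of 0.05, beside 0.0% of all genes. The adjusted p ran from 0.819 for Il27 to 0.996 for Il23a. At an unadjusted p under 0.05, 1 of the 10 was higher in irradiated mice and 0 lower, beside 2.05% of all genes higher and 4.03% lower. The groups overlapped in all 10 genes, and did not overlap in 3.68% of all genes (irradiated above sham in 1.12%, below in 2.56%). The mean difference was above 0 in 9 of the 10 genes with a median of 0.15, beside 42.2% of all genes and a median of -0.03. Sham mice 2 and 3 stood apart in their T and NK cell markers. Without them it was above 0 in 1 of the 10 genes, with a median of -0.19. Over all 22180 genes it was then above 0 in 8873, with a median of -0.05. Those mice held the lowest sham values of several of the cytokine genes, so leaving them out lowers those differences by construction.

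**Figure D1:**
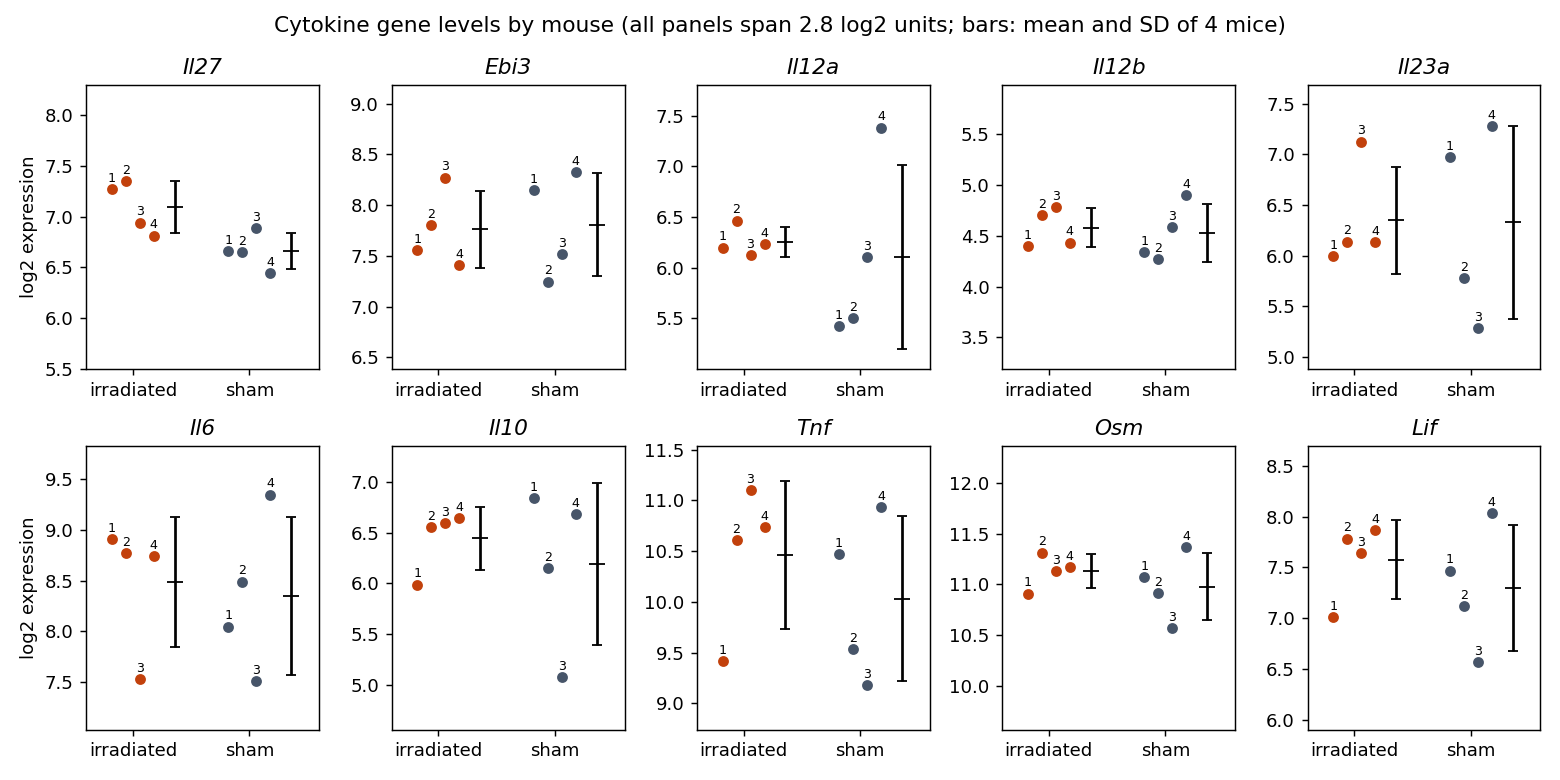
Log2 expression of each cytokine gene (y axis) in the 4 irradiated and 4 sham mice (numbered points), with the mean and SD of each group as a bar and the same span of log2 units in all panels. Il27 has 3 of 4 irradiated mice above every sham mouse, while Tnf, Il23a, Il10 and Il6 spread widely within the groups.

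Il27 encodes the helical p28 chain of IL-27. Its level was 7.27, 7.35, 6.94 and 6.81 in irradiated mice 1 to 4, against 6.66, 6.65, 6.89 and 6.44 in sham mice 1 to 4. Irradiated mice 1, 2 and 3 lay above every sham mouse, and irradiated mouse 4 lay below sham mouse 3. The mean was 7.09 ± 0.26 in irradiated mice and 6.66 ± 0.18 in sham mice (SD, n = 4 each), with a 95% interval of the difference from 0.10 to 0.76. Leaving out any single array gave a difference between 0.35 and 0.53. Il27 ranked 365th of all genes by p, and its adjusted p in limma was 0.819.

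Ebi3, the partner chain of Il27, did not share its pattern. It stood at 7.56, 7.81, 8.27 and 7.41 in irradiated mice 1 to 4, against 8.15, 7.25, 7.52 and 8.32 in sham mice 1 to 4, and the ranges of the groups lay across each other. The difference was -0.05 (95% interval -0.62 to 0.53). A further Ebi3 probe set, dimmer on average, gave 6.74, 7.06, 7.45 and 6.80 in irradiated mice and 7.31, 6.57, 7.24 and 6.88 in sham mice. The probe sets disagreed most in sham mouse 4, the highest array for the first and a middling one for the second.

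Il12a encodes the p35 chain of IL-12. Its values were 6.20, 6.46, 6.12 and 6.24 in irradiated mice 1 to 4, against 5.42, 5.50, 6.10 and 7.38 in sham mice 1 to 4. The irradiated mice sat close together within the wide range of the sham mice, in which sham mouse 4 was far above the others. The means were 6.25 ± 0.15 in irradiated and 6.10 ± 0.91 in sham mice (SD, n = 4 each), and the difference of 0.15 (95% interval -0.65 to 0.96) became 0.58 without sham mouse 4 and -0.07 without sham mouse 1. Il12b, the p40 chain that IL-12 and IL-23 share, was the dimmest of these probe sets against the rest of the array, with a mean under the median of all probe sets of 4.70. It read 4.40, 4.70, 4.78 and 4.43 in irradiated mice 1 to 4, against 4.34, 4.27, 4.58 and 4.90 in sham mice 1 to 4. The groups overlapped nearly in full, and the difference was 0.06 (95% interval -0.29 to 0.40). No detection calls were used, so whether Il12b was above background on these arrays is not known.

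Il23a encodes the p19 chain of IL-23. It stood at 5.99, 6.14, 7.13 and 6.13 in irradiated mice 1 to 4, against 6.97, 5.78, 5.29 and 7.28 in sham mice 1 to 4. Irradiated mouse 3 was high while the other irradiated mice lay close together, and the sham mice split into a high pair, 1 and 4, and a low pair, 2 and 3. The group means were nearly the same, at 6.35 ± 0.52 in irradiated and 6.33 ± 0.95 in sham mice (SD, n = 4 each). The 95% interval of the difference, -0.93 to 0.96, was nearly as wide as that of Tnf, the widest of the 10, so the data of 4 mice a group leave differences of that size in either direction possible.

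Il6 encodes the acute-phase cytokine of the family. Its level was 8.91, 8.77, 7.53 and 8.74 in irradiated mice 1 to 4, against 8.05, 8.49, 7.51 and 9.35 in sham mice 1 to 4. Irradiated mouse 3, which was the highest irradiated mouse for Il23a, Tnf and Ebi3, was the lowest for Il6. The difference was 0.14 (95% interval -0.74 to 1.02), 0.46 without irradiated mouse 3 and -0.14 without sham mouse 3.

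Osm, which encodes oncostatin M, a product of activated myeloid cells, spanned a 1.74-fold range over the 8 arrays, narrower than that of every other gene here but Il12b. It stood at 10.91, 11.31, 11.13 and 11.18 in irradiated mice 1 to 4, against 11.07, 10.91, 10.57 and 11.37 in sham mice 1 to 4. Sham mice held both the highest and the lowest value, and the difference was 0.15 ± 0.17 (SE; 95% interval -0.22 to 0.52). Lif, which encodes leukaemia inhibitory factor, stood at 7.01, 7.78, 7.64 and 7.87 in irradiated mice 1 to 4, against 7.47, 7.12, 6.56 and 8.04 in sham mice 1 to 4. Here too sham mouse 4 was highest and sham mouse 3 lowest, with a difference of 0.28 ± 0.29 (SE; 95% interval -0.37 to 0.93). Without sham mouse 3 the difference was 0.04 for Lif and 0.02 for Osm. Osm and Lif are immediate neighbours on mouse chromosome 11, with 0 annotated genes between them in the RefSeq table.

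Il10 stood at 5.99, 6.55, 6.59 and 6.64 in irradiated mice 1 to 4, against 6.84, 6.15, 5.07 and 6.68 in sham mice 1 to 4. Its irradiated mice 2 to 4 lay close together and below sham mice 1 and 4, and sham mouse 3 was far below every other array. The difference was 0.26 (95% interval -0.50 to 1.01), and -0.12 without sham mouse 3. Tnf stood at 9.41, 10.61, 11.10 and 10.73 in irradiated mice 1 to 4, against 10.47, 9.53, 9.18 and 10.93 in sham mice 1 to 4. Within each group Tnf was split: irradiated mouse 1 and sham mice 2 and 3 were low, at 9.53 or less, and the other 5 mice were at 10.47 or more. The means were 10.46 ± 0.73 in irradiated and 10.03 ± 0.81 in sham mice (SD, n = 4 each), and the difference of 0.44 (95% interval -0.52 to 1.39) ranged from 0.15 without sham mouse 3 to 0.79 without irradiated mouse 1.

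**Figure D2:**
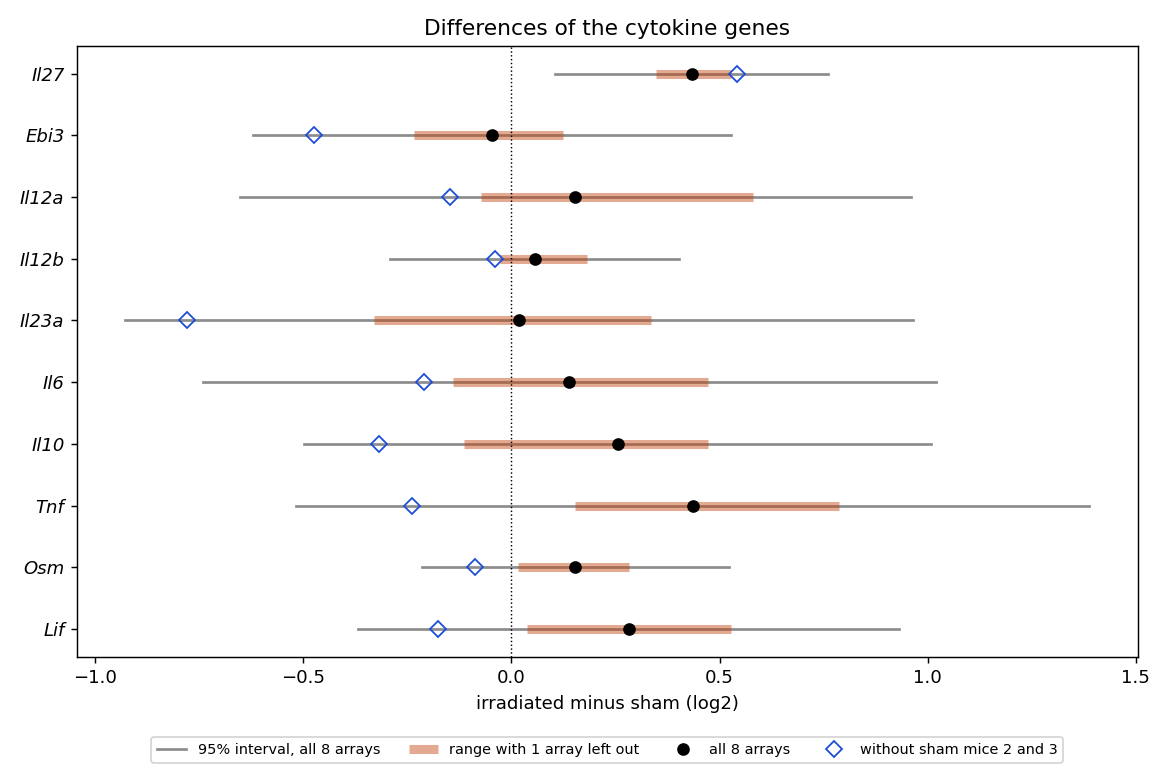
Irradiated minus sham difference (x axis, log2) of each cytokine gene: points with grey lines give the fit to all 8 arrays with its 95% interval, orange bars the range when 1 array is left out, and open diamonds the fit without sham mice 2 and 3. Il27 stays above 0 in every fit shown, whereas the diamonds of the other 9 genes lie below 0.

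Mice of the same group differed widely for most of these genes. The pooled within-group SD of Ebi3, Lif, Il10, Il12a, Il6, Il23a and Tnf lay between percentiles 93.3 and 98.6 among the 12286 genes whose mean was above the median of all probe sets. That of Il27 was at percentile 57.7 and that of Osm at percentile 71.3. From the lowest to the highest array the levels differed 3.98-fold for Il23a, 3.89-fold for Il12a, 3.80-fold for Tnf and 3.57-fold for Il6, and 1.88-fold for Il27. The same few mice held the extremes: sham mouse 4 had the highest value for 7 of the 10 genes (Ebi3, Il12a, Il12b, Il23a, Il6, Osm and Lif), beside 20% of all genes above the median. Sham mouse 3 had the lowest value for 6 of the 10 (Il23a, Il6, Il10, Tnf, Osm and Lif), beside 16.4% of those genes. Il27 ran the other way, with its lowest value in sham mouse 4.

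Markers of other cells differed between the same mice. Sham mouse 3, low for 6 of the cytokine genes, had the highest T and NK cell mean (7.64) and the highest neutrophil mean (8.57), and also the highest means of 9 measured B cell markers (6.41) and of 13 tumour and stromal cell markers (7.34). For the counts of direction that follow, 42.2% of all genes were higher on average in irradiated mice, so lower was the commoner direction. The B cell mean ran from 5.24 to 6.03 in irradiated mice and from 5.44 to 6.41 in sham mice, and 7 of the 9 markers were lower on average in irradiated mice. The tumour and stromal mean ran from 6.19 to 7.26 in irradiated mice and from 5.98 to 7.34 in sham mice, with 7 of 13 lower. Camp, a neutrophil granule gene with the lowest difference of its list (-2.77), ran from 3.08 to 3.69 in irradiated mice. In sham mice 1 to 4 Camp was 3.08, 8.02, 10.1 and 3.34. Mmp9, of the same list, ran the other way in sham mice 1 to 4, at 8.41, 6.54, 6.71 and 8.62. The neutrophil list mean was nearly the same in sham mice 1 and 2, at 7.51 and 7.52. Of the 20 T and NK cell markers 18 were lower on average in irradiated mice, with list means from 5.42 to 6.68 in irradiated mice and 5.46 to 7.64 in sham mice, and 19 had a mean above the median of all probe sets. Of the 17 neutrophil markers 14 were lower, with list means from 6.60 to 7.65 in irradiated mice and 7.31 to 8.57 in sham mice. Sham mouse 4, high for 7 cytokine genes, had the highest mean of 10 conventional dendritic cell markers (7.07, against 6.64 to 6.86 in irradiated mice) and of 10 mature dendritic cell markers. The mean of the mature markers was 6.59, 7.07, 7.03 and 6.88 in irradiated mice 1 to 4 and 7.18, 6.74, 6.82 and 7.46 in sham mice 1 to 4. Ccl22, a chemokine of mature dendritic cells, ran from 7.68 to 9.16 in irradiated mice, and was 9.60, 7.71, 7.83 and 10.0 in sham mice 1 to 4. Fscn1 and Ccr7, of the same list, did not split the sham mice in this way. In sham mice 1 to 4 Fscn1 was 5.00, 5.08, 5.86 and 5.64, and Ccr7 was 7.22, 6.76, 7.69 and 8.05. Ccr7 ran from 5.98 to 7.03 in irradiated mice, a difference of -1.01 (adjusted p = 0.819 in limma). The part of these cells in the cytokine differences was not tested. The fits that follow take marker means from the same 8 arrays or leave mice out, so they cannot settle it.

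**Figure D3:**
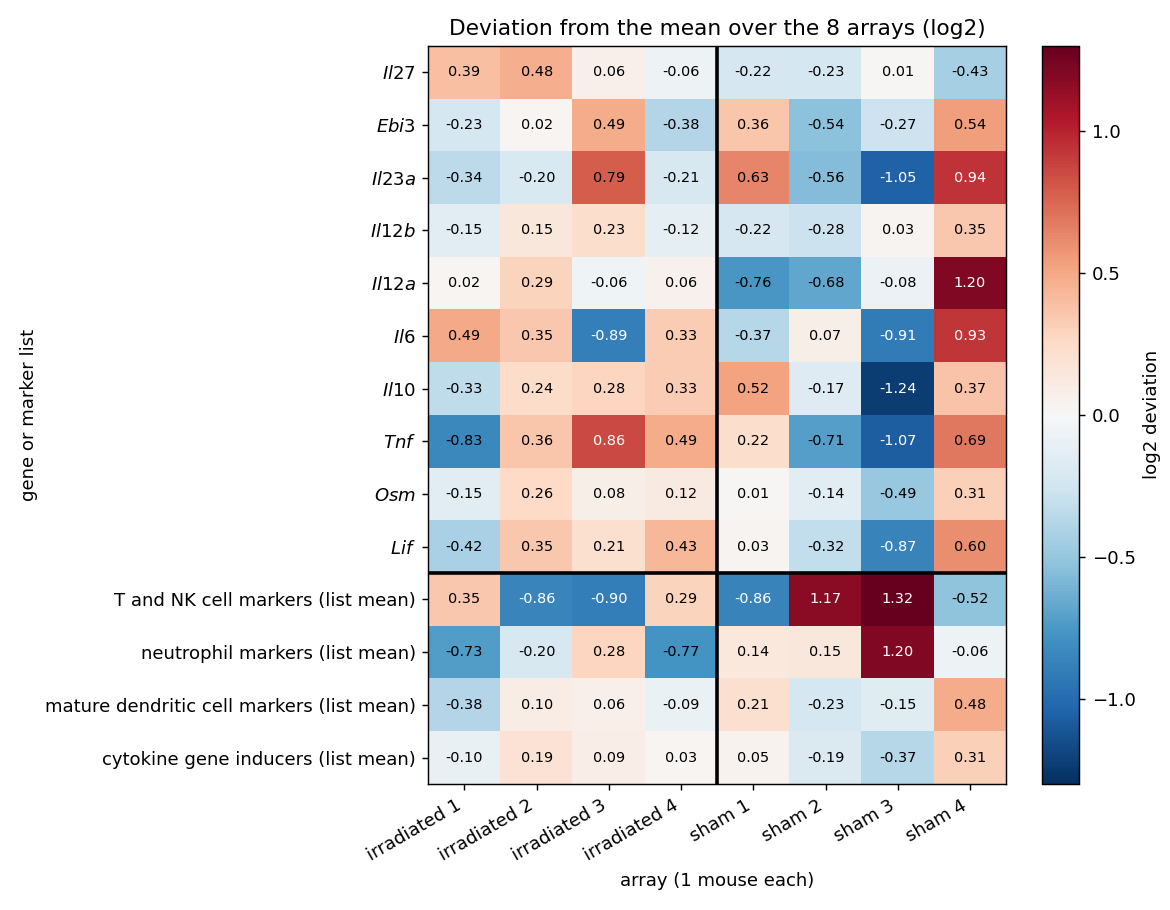
Deviation of each gene (upper rows) and of the mean of 4 gene lists (lower rows) from its own mean over the 8 arrays, in log2 units, by array. Tnf, Il10, Osm and Lif are low in irradiated mouse 1 and sham mice 2 and 3, 3 of the 4 arrays on which the T and NK cell list is above its mean (the other is irradiated mouse 4), and Il27 is high in irradiated mice 1 and 2.

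Because sham mice 2 and 3 stood apart in their T and NK cell markers, the comparison was also made without them, 4 irradiated mice against sham mice 1 and 4. The direction then turned for every cytokine gene that had been higher except Il27: 1 of the 10 was higher in irradiated mice and 9 were lower. Of all genes, 8873 were higher and 13307 lower in that fit. Il27 differed by 0.54, Tnf by -0.24, Lif by -0.18, Il10 by -0.32 and Il23a by -0.78 in that fit, with adjusted p of 0.743 or more in limma for each of the 10. With the T and NK cell mean as a covariate and all 8 arrays, the difference was 0.46 for Il27, 0.06 for Tnf, 0.06 for Lif, 0.03 for Osm and -0.03 for Il10. Il23a (-0.38) and Ebi3 (-0.29) lay farther from 0 in that fit than in the main one. Il6 differed by 0.10, Il12a by 0.06 and Il12b by -0.01. With the mature dendritic cell mean as a covariate the difference was 0.38 for Il27, 0.83 for Tnf and 0.53 for Lif. The smallest adjusted p of the 10 in limma was then 0.434, for Tnf. Sham mice 2 and 3 held the lowest sham values of Tnf, Lif, Il10, Osm, Il23a and Ebi3, so leaving them out lowers those differences by construction, and no other pair of mice was left out. Tnf, Lif and Osm kept their direction without any single array, and Il27 kept its direction in every fit made.

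For each gene above the median, the 3 genes whose values ran most alike over the 8 arrays were found by Pearson r, given here only as a ranking measure over 8 arrays that share their cell mixture. Tnf ran most like Nlrp3, the inflammasome sensor (r = 0.97), the transcription factor gene Ets2 (r = 0.97) and Lsmem1 (r = 0.97). Lif and Osm ran most like Cyth1 (r = 0.99 for each) and each had the other among its 3 (r = 0.97). Cd86, a costimulatory ligand, was the third for Osm (r = 0.97), and Pde4b, a phosphodiesterase that degrades cyclic AMP, the second for Lif (r = 0.98). Il10 ran most like Nabp1, Arid5b and Fyttd1 (r = 0.95 to 0.96). Ebi3 ran most like the B cell adaptor gene Blnk, the gelatinase gene Mmp9 and Fmnl2 (r = 0.98 to 0.99), and among the cytokine genes like Il23a (r = 0.90). Il23a ran like Igdcc3, Setd3 and Dusp12 (r = 0.97 to 0.98), Il12a like Mcf2l, Tmem239 and Rsph6a (r = 0.95 to 0.97) and Il6 like Slc35b1, Apaf1 and Fam107a (r = 0.94 to 0.95). Il27 ran most like Gpr50 (r = 0.99), Dab2ip (r = 0.96) and Hdac11 (r = 0.95), and its r with the other 8 cytokine genes above the median was -0.05 (Il6) or lower.

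Tnf and Lif, which shared their low and high mice, and Il6, which did not follow them in irradiated mice 1 and 3, are shown with the DNA just upstream of them. RefSeq promoter windows (GRCm38.p6, 250 bases before to 50 after the start of the gene) were found for 6 of the 10 genes: Ebi3, Il12a, Il12b, Il6, Tnf and Lif. Each was searched on both strands for an NF-kB site (GGG, any 2 bases, then TTTCC, present in 1.63% of 32851 such windows), an AP-1 site (TGANTCA, 7.81%), a TATA box (TATAAA, 13.6%) and an interferon-stimulated element (GAAA, any 2 bases, then GAAA, 3.44%). Capitals mark the matches, and none of these motifs overlapped another.
Il6 (chr5:30012864-30013163, plus strand): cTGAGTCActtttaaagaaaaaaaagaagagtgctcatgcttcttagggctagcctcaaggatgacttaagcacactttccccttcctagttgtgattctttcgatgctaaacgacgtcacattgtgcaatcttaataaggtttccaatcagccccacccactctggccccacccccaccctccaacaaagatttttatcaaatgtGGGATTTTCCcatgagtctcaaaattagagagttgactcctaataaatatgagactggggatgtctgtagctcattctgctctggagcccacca
Tnf (chr17:35201958-35202257, minus strand): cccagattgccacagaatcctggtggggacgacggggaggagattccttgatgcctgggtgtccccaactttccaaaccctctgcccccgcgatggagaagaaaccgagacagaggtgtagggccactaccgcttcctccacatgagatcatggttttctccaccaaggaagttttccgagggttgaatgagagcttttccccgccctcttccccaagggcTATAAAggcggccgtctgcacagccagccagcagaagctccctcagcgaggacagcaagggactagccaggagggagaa
Lif (chr11:4257318-4257617, plus strand): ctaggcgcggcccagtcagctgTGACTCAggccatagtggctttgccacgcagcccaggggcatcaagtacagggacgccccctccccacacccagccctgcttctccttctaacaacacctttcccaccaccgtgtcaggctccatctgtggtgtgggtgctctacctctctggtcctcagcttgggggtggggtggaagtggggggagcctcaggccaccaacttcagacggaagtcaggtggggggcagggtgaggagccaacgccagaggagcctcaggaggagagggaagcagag
The Il6 window held an NF-kB match that begins 44 bases before the start and an AP-1 match 249 bases before it, the Lif window an AP-1 match 228 bases before it, and the Tnf window a TATA box 29 bases before it. The windows of Ebi3, Il12a and Il12b held none of these letters. A match describes the sequence only and does not show that a factor binds there in these cells.

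The receptors of these cytokines were described next, from a list of 12 chains, all measured. None passed the adjusted threshold, and 8 were higher and 4 lower on average in irradiated mice, beside 42.2% of all genes higher. In limma 1 was lower at an unadjusted p under 0.05, beside 4.03% of all genes. That one was Il27ra, the ligand-binding chain of the IL-27 receptor, which stood at 5.07, 4.90, 5.13 and 5.03 in irradiated mice 1 to 4, against 4.85, 5.77, 5.77 and 5.53 in sham mice 1 to 4. Irradiated mice were close together, and sham mouse 1 was below them all while sham mice 2 to 4 were above them. Its difference was -0.45 ± 0.19 (SE; adjusted p = 0.819 in limma), -0.31 with the T and NK cell mean as a covariate, -0.53 with the mature dendritic cell mean and -0.16 without sham mice 2 and 3. Il12rb2, the signalling chain of the IL-12 receptor, differed by 0.29 ± 0.18 (SE) and Tnfrsf1a, the main TNF receptor, by 0.15 ± 0.11. Il12rb2 was 0.13 without sham mouse 4 and Tnfrsf1a 0.0880 without sham mouse 3. The IL-10 receptor chains Il10ra and Il10rb differed by 0.07 and 0.05, and Il6st, which encodes gp130, by -0.13, with 95% intervals across 0. Il23r, Il12rb1 and Osmr had means under the median of all probe sets.

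Of the signalling genes below these receptors, Stat4, the transcription factor of the IL-12 receptor in T and NK cells, was the only one whose groups did not overlap. It stood at 7.39, 6.84, 6.84 and 7.36 in irradiated mice 1 to 4, against 7.61, 8.46, 8.43 and 7.47 in sham mice 1 to 4. All 4 irradiated mice lay below all sham mice, as in 2.56% of all genes, and sham mice 2 and 3, with the highest T and NK cell markers, were the highest for Stat4 too. The difference was -0.88 ± 0.25 (SE; adjusted p = 0.819 in limma), -0.63 with the T and NK cell mean as a covariate, -0.82 with the neutrophil mean, -1.10 with the mature dendritic cell mean (adjusted p = 0.0877 in limma) and -0.43 without sham mice 2 and 3. The other measured JAK and STAT genes differed by 0.21 or less to either side, with Stat5b at -0.21 (-0.13 without irradiated mouse 2) and Jak1 at -0.09 (-0.0193 without sham mouse 3). Of the 8 measured, 2 were higher and 6 lower.

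Genes that regulate transcription of the cytokine genes were higher in 8 and lower in 5 of 13, with a median of 0.05 and 0 past the adjusted threshold. Maf, an activator of Il10, differed by 0.80 ± 0.45 (SE), with values of 10.0, 10.3, 9.81 and 8.66 in irradiated mice 1 to 4 against 9.39, 8.78, 7.67 and 9.72 in sham mice 1 to 4. Sham mouse 3 was lowest for both Maf and Il10, but irradiated mice 1 and 4 did not pair them. Irradiated mouse 1 had high Maf (10.0) with low Il10 (5.99), and irradiated mouse 4 low Maf (8.66) with high Il10 (6.64). A link between Maf and Il10 was not tested. Without sham mice 2 and 3 the difference of Maf was 0.14. Maf has more than 1 probe set, and with their mean its difference was 0.53. Nfkbiz, which encodes an IkB protein needed for Il6 transcription, differed by 0.28 ± 0.28 and the stress factor gene Atf3 by 0.17 ± 0.19. Nfkbiz was 0.0851 without sham mouse 2 and Atf3 0.0667 without irradiated mouse 3, and Maf 0.40 without sham mouse 3.

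No regulator after transcription passed the adjusted threshold. Of 11 genes of cytokine mRNA decay and TNF release, 8 were higher and 3 lower, with a median of 0.04. Rhbdf2, which escorts the TNF-releasing protease, differed by 0.20 ± 0.15 (SE), the mRNA-cleaving enzyme gene Zc3h12a by 0.23 ± 0.23, and Zfp36, whose product tristetraprolin destabilises Tnf mRNA, by 0.12 ± 0.15. Single arrays moved these values: Zc3h12a was 0.0132 without irradiated mouse 3, Rhbdf2 0.0767 without sham mouse 3 and Zfp36 0.0309 without sham mouse 2. Of 14 genes of TNF signalling, 6 were higher and 8 lower, among them Nfkbia, the NF-kB inhibitor (0.26 ± 0.15), Fadd, a death adaptor (-0.31 ± 0.20), and Mlkl, the executor of necroptosis (0.24 ± 0.16). Fadd was -0.16 without sham mouse 4 and Mlkl 0.0930 without irradiated mouse 1. Further cytokines of the same families were higher in 3 and lower in 9 of 12, but 6 of the 12 had means under the median of all probe sets. Tnfsf15, a T cell costimulator of the TNF family, differed by 0.50 ± 0.33 and Ltb, the lymphotoxin beta gene, by -0.42 ± 0.33. Il22, near the floor of the arrays, differed by -0.18 ± 0.14. Tnfsf15 was 0.24 without irradiated mouse 1, Ltb -0.0890 without sham mouse 3 and Il22 -0.10 without irradiated mouse 3. Over the 70 measured genes of all these lists, 35 were higher on average in irradiated mice, beside 42.2% of all genes. In limma 0 of the 70 passed the adjusted threshold and 2 were lower at an unadjusted p under 0.05. That is 2.86% beside 6.07% of all genes in either direction.

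**Figure D4:**
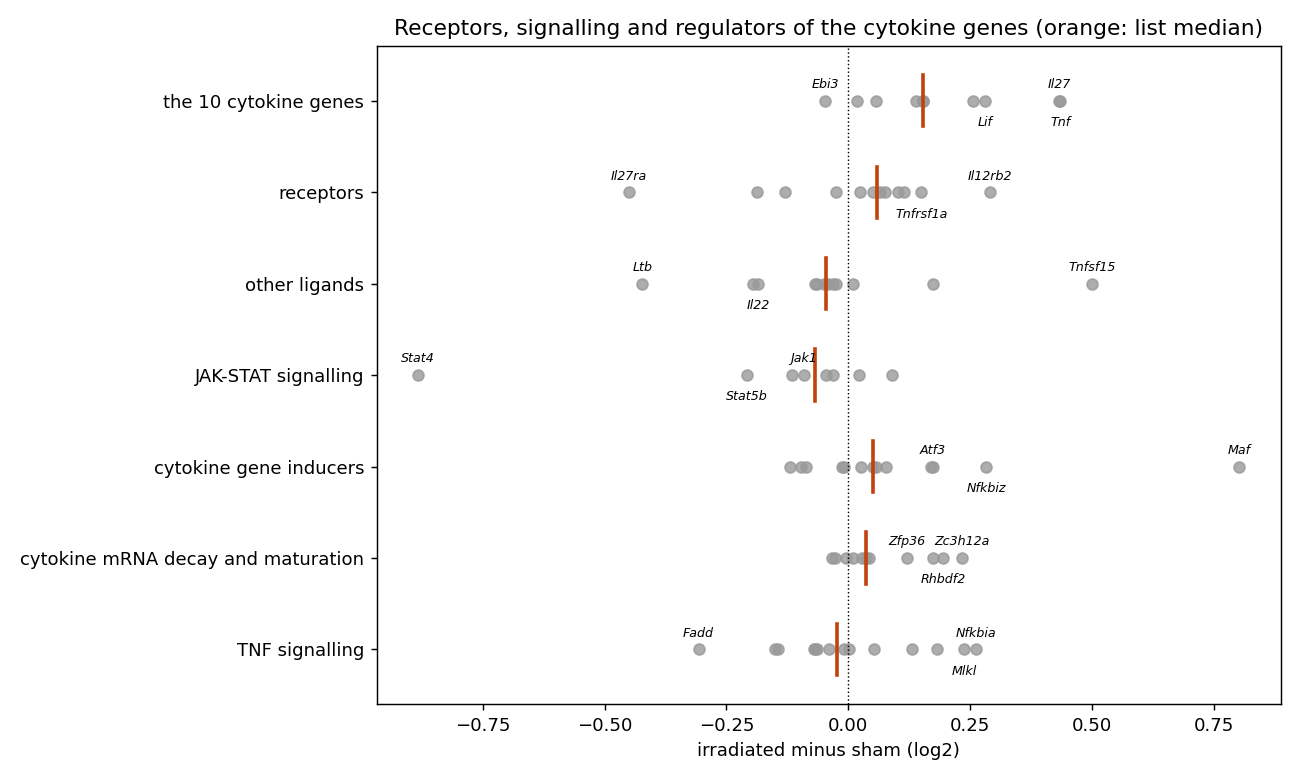
Irradiated minus sham difference (x axis, log2) of every measured gene of the cytokine set and of each related list (grey points, 1 gene each), with the list median as an orange line and the 3 genes of smallest p in each related list named. Medians lie between -0.07 and 0.15, and Stat4, at -0.88, is the farthest from 0.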

How the data were processed

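The arrays were Affymetrix mouse arrays, 1 for each of 8 mice, and groups come from the sample titles. The authors deposited log2 expression values between 1.89 and 13.15; RMA and Partek are named, with no version or setting, per the submitters' processing notes. RNA (25 ng a mouse) was amplified by ribo-SPIA, per the labels' protocols. Of 34365 probe sets, 23521 carried 1 gene symbol, which left 22180 genes after the brightest probe set of each gene was kept. No dim gene was removed. Irradiated and sham mice were compared by limma (version 3.58.1, R 4.3.3), in a two-sided test whose p-values were adjusted by Benjamini-Hochberg across the 22180 genes. Errors marked SE and the 95% intervals come from that model and SDs from the 4 mice. The model was first tested on simulated data. The names given are the 10 cytokine genes, the receptor chains, the sort markers, the 3 genes of smallest p in each of 6 related lists, and the 3 most alike genes among 11068 searched (not predicted genes, small RNAs, olfactory, vomeronasal or antigen receptor genes). Camp, Mmp9, Ccl22, Fscn1 and Ccr7 were picked from their lists after their values were seen. The cytokine genes, lists and alternatives were chosen with earlier results of these data known, and 1 further pathway list is not reported here. Nothing states that the mice were of separate cohorts, so p-values measure the spread between these mice. The genome build of the arrays' annotation is not given in the sources used here; sequences are from RefSeq, GRCm38.p6.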

Additional observations from a re-analysis of the deposited data

Results flagged for a closer look

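In 56 groups of 4 mice (the 10 cytokine genes and the 3 genes of smallest p in each of 6 related lists, each in irradiated and in sham mice), 5 held 1 mouse far from the other 3 by Dixon's test, where chance alone marks about 1 in 20. Among the cytokine genes, irradiated mouse 3 stood apart for Il23a, at 7.13 against 5.99 to 6.14 in the other irradiated mice, and for Il6, at 7.53 against 8.74 to 8.91. Irradiated mouse 1 stood apart for Il10, at 5.99 against 6.55 to 6.64 in the other irradiated mice. Among the related genes, sham mouse 3 stood apart for Tnfsf15, at 4.60, and sham mouse 4 for Mlkl, at 7.71. Without irradiated mouse 3 the Il6 difference was 0.46.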

How the results depend on the processing

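Over 20 alternatives, Il27 was higher in irradiated mice in all, with adjusted p from 0.614 to 0.957, and 0 of the 10 cytokine genes passed the adjusted threshold in any. Values that turned sign were, without sham mice 2 and 3, Il12a -0.15, Il12b -0.0392, Il23a -0.78, Il6 -0.21, Il10 -0.32, Tnf -0.24, Osm -0.0865, Lif -0.18, Nfkbiz -0.24, Zfp36 -0.0878, Atf3 -0.00292 and Ltb 0.25. With the neutrophil mean as a covariate they were Ebi3 0.00817, Il23a -0.24, Il6 -0.66, Il10 -0.19, Osm -0.0228, Lif -0.0366, Ltb 0.0689 and Jak1 0.0674. With the T and NK cell mean they were Il12b -0.0117, Il23a -0.38, Il10 -0.0255 and Zfp36 -0.00034. Ebi3 was 0.16 with the mature dendritic cell mean and 0.0132 after quantile normalization, and Il23a was -0.0140 with array weights. The cause of these turns was not tested. Leaving out 1 array gave ranges of -0.23 to 0.12 for Ebi3, -0.0729 to 0.58 for Il12a, -0.0275 to 0.18 for Il12b, -0.33 to 0.34 for Il23a, -0.14 to 0.47 for Il6 and -0.12 to 0.47 for Il10. Tnf (0.15 to 0.79), Osm (0.02 to 0.28), Lif (0.04 to 0.53) and Il27 (0.35 to 0.53) kept their sign. Genes past the adjusted threshold numbered 0, or 1 with the mature dendritic cell mean (Adam4) and 0 to 1 with 1 array left out (H2ac15, without irradiated mouse 1), neither chosen by the naming rule. Genes at an unadjusted p under 0.05 in limma numbered 1347 (454 higher, 893 lower), 801 with dim genes removed, where fewer genes were tested and Il12b has no value, and 1093 to 1403 with 1 array left out. The split was 662 higher and 603 lower after quantile normalization and 525 higher and 763 lower with array medians subtracted. Irradiated and sham mice share numbers only: deviations of same-numbered mice correlated at -0.28 to -0.14. With the mouse number as a replicate block, 1065 genes had an unadjusted p under 0.05 and 0 passed the adjusted threshold; the difference of Il27 stayed 0.43. With 4 arrays a group, the 95% intervals of 9 of the 10 cytokine genes hold 0 together with sizeable differences.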
